A study of Zea mays with 12 samples.

Results

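In maize endosperm at 16 days after pollination, 60 genes were close to silent in wild type and in nkd2-Ds but were expressed in each library labelled nkd1-Ds. They were chosen from 34348 genes by their measured levels. A gene was kept where its highest wild-type value was at most 0.5 RPKM, its highest nkd2-Ds value at most 1 RPKM and its lowest nkd1-Ds value at least 2 RPKM. RPKM counts reads per kilobase of a gene, divided by the size of the library, as the authors deposited it. These limits were met by 61 genes. The rule also leaves out 3 genes by name, of which 1 (alias Amy2) met the limits. Because the rule used all 3 groups, the members' levels and differences are a description. Where calls across all genes are counted among them, nothing is read from the count.

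RNA was sequenced from whole endosperm, the storage tissue of the kernel, of field-grown and self-pollinated maize of the W22 inbred background. Each of 3 groups had 4 libraries, which the series calls biological replicates: the wild type, here WT, and the mutants nkd1-Ds and nkd2-Ds. The mutant alleles are named for the maize transposon Ds, and all 3 groups share the W22 background. The labels give neither how many ears or plants went into a library nor the position of the insertions.

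The genes nkd1 and nkd2 (naked endosperm) are duplicates. Their proteins are INDETERMINATE domain factors, which bind DNA through zinc fingers, and they act in the formation of the aleurone, the outermost cell layer of the endosperm, and in endosperm maturation.

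The targeted genes were measured in every library. nkd1 (GRMZM2G129261) stood at 45.3, 52.1, 52.0 and 47.3 RPKM in WT replicates 1 to 4, at 14.4, 12.4, 12.2 and 12 RPKM in nkd1-Ds, and at 34.7, 33.3, 37.1 and 35.4 RPKM in nkd2-Ds. nkd2 (GRMZM5G884137) stood at 18.9, 19.1, 20.6 and 19.4 RPKM in WT, at 1.08, 1.01, 1.14 and 1.19 RPKM in nkd1-Ds, and at 1.08, 1.25, 1.27 and 0.975 RPKM in nkd2-Ds. The nkd2 transcript was thus as low in the libraries labelled nkd1-Ds as in those labelled nkd2-Ds, and only nkd1 separated the mutant groups. Every value given here for nkd1-Ds is for libraries labelled nkd1-Ds that were low in both transcripts.

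Reads assigned to genes came to 37.6 to 40.6 megareads per library in nkd1-Ds, 39.8 to 48.0 in WT and 35.3 to 47.4 in nkd2-Ds. The library size behind the deposited RPKM was 34.3 to 40.5 megareads in nkd1-Ds, against 27.3 to 31.1 in WT and 27.8 to 30.9 in nkd2-Ds. The nkd1-Ds libraries were thus larger by this size but not by assigned reads. They had fewer genes without a read, at 399 to 491, against 828 to 936 in WT and 718 to 939 in nkd2-Ds. Cell type markers were matched by name where the reference gene table gave a single gene. None of those matched was a member, and none was at 0 in every library. The 6 matched storage markers, of 7, were high in all groups, with a summed level of 39540 to 45373 RPKM in nkd1-Ds and 54321 to 63244 RPKM in WT and 59454 to 85168 RPKM in nkd2-Ds. In nkd1-Ds zp15, wx1 and bt2 were called lower and o2 higher, and the zp15 mean was 15600 RPKM, against 32100 in WT. The 4 matched aleurone markers, of 6, summed to 26.5 to 28.9 RPKM in nkd1-Ds, 32.4 to 36.4 in WT and 50.9 to 101 in nkd2-Ds. Of these vp1, c1 and ole17 were called lower in nkd1-Ds and r1 higher. Only its mutant levels brought r1 into the fit, so its call is no test of a rise. The mean of r1 was 0.069 RPKM in WT and 21.1 in nkd1-Ds, and that of ole17 was 31.7 and 5.3 in the same order. The nkd1-Ds sum was therefore mostly r1 and the WT sum mostly ole17. The gene r1 is also among the 3 genes left out by name. The 5 matched basal transfer layer markers, of 8, summed to 50 to 90.2 RPKM in nkd1-Ds, 38.0 to 184 in WT and 14.9 to 166 in nkd2-Ds. Of them 1, mrp1, was called higher (limma adjusted p = 8e-09). The others, betl2, betl3, mn1 and meg1, had lower means in nkd1-Ds than in WT and were not called. The 5 matched embryo markers, of 8, summed to 81.9 to 110 RPKM in nkd1-Ds, 90.3 to 103 in WT and 139 to 249 in nkd2-Ds. In nkd1-Ds lg3 and zmhox1a were called higher. The others, wox2a, glb1 and ole16, had lower means in nkd1-Ds than in WT and were not called. The 3 matched embryo-surrounding region markers, of 4, summed to 3.32 to 6.88 RPKM in nkd1-Ds, 2.14 to 6.37 in WT and 0.264 to 19.5 in nkd2-Ds. The 3 matched green tissue and pericarp markers, of 8, summed to 1.99 to 2.46 RPKM in nkd1-Ds, 1.25 to 1.76 in WT and 1.54 to 2.13 in nkd2-Ds. Of these psah1 was called higher and psad1 lower. Only its nkd1-Ds level brought psah1 into the fit, so its call is no test of a rise. None of the 6 pollen and anther markers was matched, so these cell types were not checked. The part of library size or of cell makeup in the members' levels was not tested. In whole endosperm, fewer cells of a type and less RNA per cell cannot be told apart.

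Summed over the 60 members, the level was 475.1, 426.8, 473.3 and 413.5 RPKM in nkd1-Ds replicates 1 to 4. It was 7.96, 7.07, 5.90 and 4.48 RPKM in WT, and 8.19, 9.83, 10.3 and 13.3 RPKM in nkd2-Ds. In reads, which do not depend on the deposited scaling, the members took 594 to 685 reads per megaread in nkd1-Ds, 5.14 to 9.94 in WT and 7.88 to 19.5 in nkd2-Ds. The groups had to separate, because the rule chose them so. All 60 members had a read in each nkd1-Ds library, while 36 to 43 had a read in a WT library and 40 to 46 in an nkd2-Ds library.

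**Figure D1:**
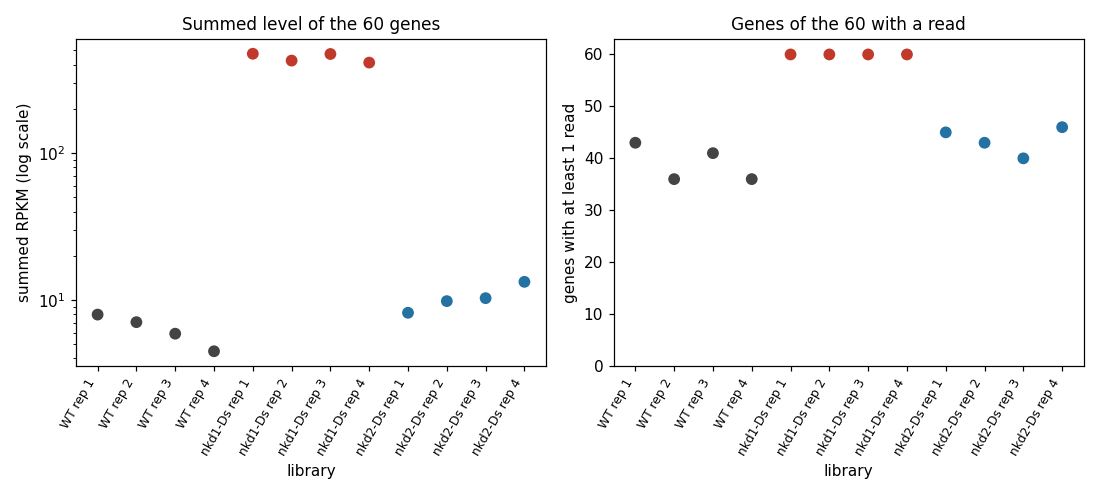
Left, summed level of the 60 genes in each of the 12 libraries, in RPKM on a log scale; right, how many of the 60 had at least 1 read. Each point is a library (grey, WT; red, nkd1-Ds; blue, nkd2-Ds). The 4 nkd1-Ds libraries stand at 413.5 to 475.1 RPKM and the other 8 at 4.48 to 13.3 RPKM.

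Most members were low genes even where they were on. The mean in nkd1-Ds was at least 10 RPKM for 8 members, 5 to 10 RPKM for 13 and under 5 RPKM for 39. The median of these means was 4.04 RPKM and the range 2.29 to 45.7 RPKM. The 5 highest members made up 40.0% of the summed level. The highest of them ranked 1440th among all genes in the nkd1-Ds mean, so no member was among the most abundant transcripts of this tissue.

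**Figure D2:**
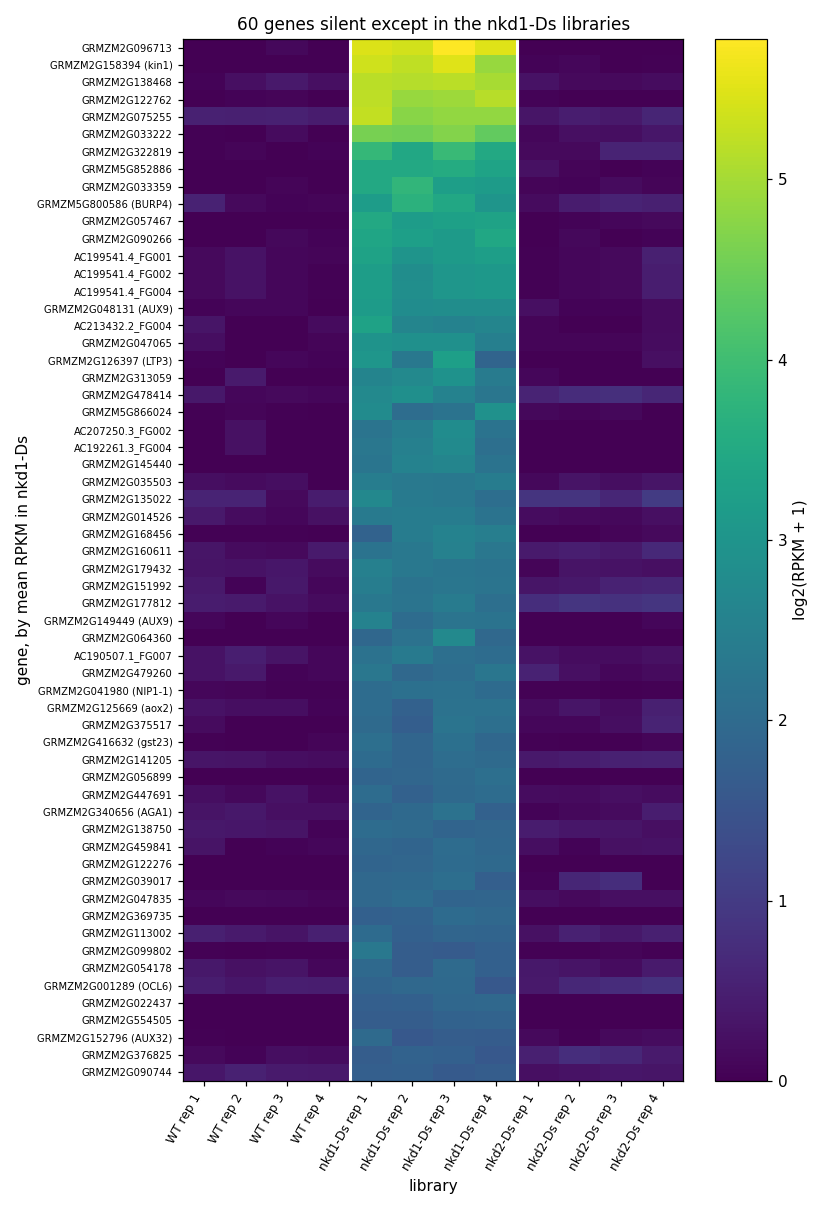
Level of each of the 60 genes (rows, ordered by mean RPKM in nkd1-Ds) in each of the 12 libraries (columns), as log2(RPKM + 1) by colour. The 4 nkd1-Ds columns are bright from top to bottom, in rows whose means run from 45.7 down to 2.29 RPKM, and the WT and nkd2-Ds columns are dark.

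The highest member was GRMZM2G096713, which has no name in the reference gene table. Its level was 43.7, 40.9, 53.9 and 44.4 RPKM in nkd1-Ds replicates 1 to 4. A single read was counted for it in the 4 WT libraries together and none in nkd2-Ds. The next member, GRMZM2G158394, is listed with the alias kin1. Another gene of the table (GRMZM2G129569) carries the same alias, so the alias does not say what kind of protein it codes for. GRMZM2G158394 stood at 39.9, 36.7, 44.5 and 28.8 RPKM in nkd1-Ds, from 2068, 2137, 2724 and 1620 reads. It had no read in WT, and 2, 3, 0 and 1 reads in nkd2-Ds replicates 1 to 4. Against a floor of 3 reads per library, its nkd1-Ds mean was at least 549-fold higher than in WT; such a floor covers counting error only.

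GRMZM2G138468 stood at 35.1, 33.9, 35.4 and 31.3 RPKM in nkd1-Ds, at 0.0424, 0.175, 0.310 and 0.184 RPKM in WT, and at 0.215, 0.109, 0.105 and 0.137 RPKM in nkd2-Ds. GRMZM2G122762 stood at 35.7, 28.8, 29.4 and 34.5 RPKM in nkd1-Ds and had at most 3 reads in any other library. GRMZM2G075255 stood at 36.8, 25.9, 27.7 and 27.8 RPKM in nkd1-Ds, at 0.436, 0.417, 0.454 and 0.353 RPKM in WT, and at 0.261, 0.375, 0.305 and 0.511 RPKM in nkd2-Ds. These 3 genes show that the members were not equally silent elsewhere. GRMZM2G075255 had 37 to 46 reads in each WT library, a low but steady level, whereas GRMZM2G122762 was at or near 0.

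GRMZM2G033222 stood at 23.3, 22.4, 25 and 19.9 RPKM in nkd1-Ds, with 0 to 5 reads in a WT library and 3 to 13 in an nkd2-Ds library. GRMZM2G322819 stood at 13.4, 10.1, 14.0 and 10.3 RPKM in nkd1-Ds. Its level was 0.109, 0.110, 0.482 and 0.496 RPKM in nkd2-Ds, above its WT range of 0.0140 to 0.0493 RPKM. GRMZM2G322819 thus had a trace of transcript in nkd2-Ds, with 36 and 40 reads in replicates 3 and 4 and 8 in each of the others. GRMZM5G852886 was 1 of the most even members, at 10.2, 10.3, 10.7 and 9.19 RPKM in nkd1-Ds, with no read in WT and 4, 1, 0 and 1 in nkd2-Ds. GRMZM2G033359 stood at 10.3, 12.9, 8.39 and 7.96 RPKM in nkd1-Ds and at no more than 0.124 RPKM elsewhere. Neither has a descriptive name in the reference gene table.

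Members with a name in the table touch several processes, and each is a single gene or a pair. Among regulators, AUX9 and AUX32 carry the series name of maize Aux/IAA genes, whose proteins repress the transcriptional response to the hormone auxin and are themselves often induced by it. The AUX9 gene of the table covers 2 gene models of the files, GRMZM2G048131 and GRMZM2G149449, so they are not independent members. GRMZM2G048131 stood at 8.03, 5.99, 6.09 and 6.14 RPKM in nkd1-Ds and GRMZM2G149449 at 4.86, 3.11, 3.69 and 3.62 RPKM. Both models were highest in replicate 1. In the other 8 libraries the first stayed at or under 0.182 RPKM and the second at or under 0.0781 RPKM. AUX32 (GRMZM2G152796) stood at 2.98, 2.01, 2.26 and 2.2 RPKM in nkd1-Ds. It had 1, 0, 0 and 0 reads in WT and 4, 1, 4 and 6 reads in nkd2-Ds.

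OCL6 (GRMZM2G001289) belongs to the HD-ZIP IV homeodomain factors, many of which are expressed in outer cell layers of plant organs. It stood at 2.65, 2.86, 2.95 and 2.01 RPKM in nkd1-Ds, at 0.374, 0.271, 0.410 and 0.380 RPKM in WT, and at 0.319, 0.565, 0.675 and 0.781 RPKM in nkd2-Ds. With 30 to 40 reads in each WT library, OCL6 was low rather than off in WT, and the nkd1-Ds mean was 7.29 times the WT mean.

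Among genes of the cell surface and transport, BURP4 (GRMZM5G800586) codes for a protein with the plant-specific BURP domain. It stood at 8.09, 12.2, 10.1 and 7.02 RPKM in nkd1-Ds, at 0.475, 0.113, 0.0430 and 0.0597 RPKM in WT, and at 0.125, 0.360, 0.492 and 0.419 RPKM in nkd2-Ds. Its WT value rested largely on replicate 1, with 23 reads there and 2 to 6 in the others. LTP3 (GRMZM2G126397) carries the name of lipid transfer proteins, small secreted proteins that bind lipids. It was the least even member in nkd1-Ds, at 7.23, 3.94, 8.56 and 2.65 RPKM, a coefficient of variation of 49.3%. NIP1-1 (GRMZM2G041980), an aquaporin of the nodulin 26-like group, was among the most even, at 3.10, 3.37, 3.49 and 3.03 RPKM. It was at 0.0167 to 0.0694 RPKM in WT and at 0 to 0.0178 RPKM in nkd2-Ds, so the nkd2-Ds libraries held at most 1 read of NIP1-1 each.

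Among enzymes, the gene with the aliases aox1 and aox2 (GRMZM2G125669) codes for an alternative oxidase, which takes electrons from the mitochondrial respiratory chain to oxygen and is induced by many stresses. It stood at 3.14, 2.47, 3.54 and 3.56 RPKM in nkd1-Ds, at 0.211, 0.155, 0.154 and 0.0407 RPKM in WT, and at 0.128, 0.259, 0.147 and 0.428 RPKM in nkd2-Ds. gst23 (GRMZM2G416632), a glutathione S-transferase gene of the detoxification system, stood at 3.34, 2.71, 3.40 and 2.81 RPKM in nkd1-Ds. It had 1, 0, 0 and 2 reads in WT and the same numbers in nkd2-Ds. AGA1 (GRMZM2G340656), named as an alkaline alpha-galactosidase, an enzyme that splits galactose from raffinose-type sugars, stood at 2.66, 2.92, 3.56 and 2.48 RPKM in nkd1-Ds. It was at 0.232, 0.297, 0.181 and 0.179 RPKM in WT, and at 0.0352, 0.0949, 0.127 and 0.384 RPKM in nkd2-Ds. In all 3 enzyme genes the WT and nkd2-Ds ranges overlapped.

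**Figure D3:**
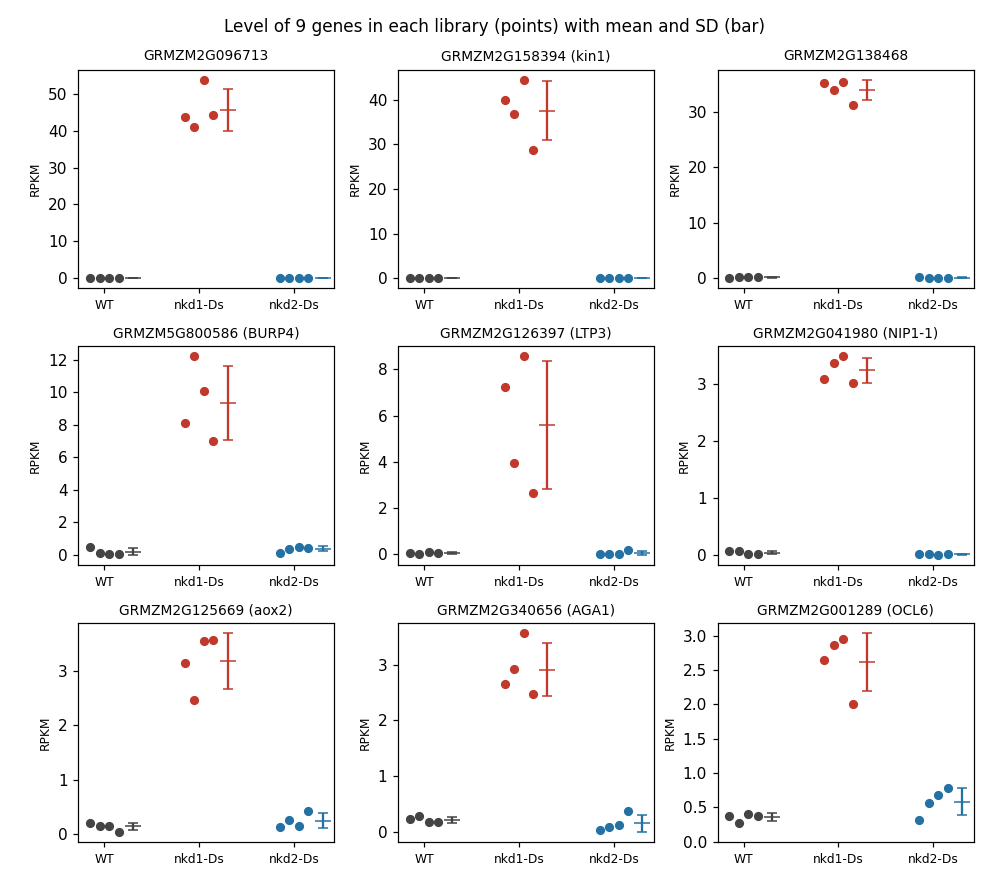
Level in RPKM of 9 members, on a linear axis from 0 in each panel; points are the 4 libraries of a group in replicate order, and the bar beside them is mean ± SD. The nkd1-Ds points stand clear of both other groups in every panel, as the rule requires, and LTP3 shows the widest spread in nkd1-Ds, from 2.65 to 8.56 RPKM.

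The members also differed in how fully they were off. For 7 members no read was counted in any of the 8 WT and nkd2-Ds libraries. GRMZM2G145440 was the highest of these, at 3.72, 4.93, 5.19 and 3.61 RPKM in nkd1-Ds, from 129, 192, 213 and 136 reads. GRMZM2G064360 stood at 2.82, 3.53, 5.62 and 2.85 RPKM, with replicate 3 above the others. The other 5, GRMZM2G056899, GRMZM2G122276, GRMZM2G369735, GRMZM2G022437 and GRMZM2G554505, had means of 2.40 to 2.92 RPKM in nkd1-Ds. Set against 3 reads in each WT library as a floor, the nkd1-Ds mean was at least 54.2-fold higher for GRMZM2G064360 and at least 42.8-fold higher for GRMZM2G145440. For GRMZM2G022437, a gene model of 245 bases with 20 to 28 reads per nkd1-Ds library, the same floor allowed only "at least 6.22-fold higher". Counting WT alone, 11 members had no read, and 4 of these had some in nkd2-Ds.

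GRMZM2G057467 was 1 of those 4. It stood at 10.3, 8.17, 8.78 and 8.98 RPKM in nkd1-Ds, with 0, 1, 2 and 3 reads in nkd2-Ds. GRMZM2G039017 was another, at 2.85, 2.94, 3.28 and 2.34 RPKM in nkd1-Ds. Its nkd2-Ds libraries were uneven, with 1, 15, 20 and 0 reads, so traces of it were seen mainly in replicates 2 and 3. In the reverse case, 3 members had no read in nkd2-Ds and some in WT: GRMZM2G096713, AC192261.3_FG004 and AC207250.3_FG002.

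Some members may not be separate genes. AC199541.4_FG001, AC199541.4_FG002 and AC199541.4_FG004 come from the same clone and have the same length, 1398 bases. FG002 stood at 8.30, 6.18, 7.20 and 7.5 RPKM in nkd1-Ds and FG004 at 8.36, 6.20, 7.18 and 7.42 RPKM, a difference of at most 1.03% in any nkd1-Ds library. In WT and nkd2-Ds these 2 had the same values throughout. AC192261.3_FG004 and AC207250.3_FG002 tracked each other within 7.61%. Both had reads in WT replicate 2 alone of the WT and nkd2-Ds libraries, 3 and 2 reads. Members of unlike length came as near, such as GRMZM2G125669 and GRMZM2G375517 within 6.38%, so closeness of this size does not show copies. GRMZM2G313059 had the length of AC192261.3_FG004, 489 bases, and its WT reads, 5, were also in replicate 2 alone. The sources used here do not say how reads that match several copies were counted, and the levels of the 5 clone-named models above are uncertain. Gene models named after clones made up 7 of the 60 members (11.7%), beside 4.34% of all genes in the files. The median length of the members was 1255 bases, beside 1534 bases over all genes.

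Between the nkd1-Ds libraries most members were even. The coefficient of variation had a median of 12.4% and ran from 5.55% for GRMZM2G138468 to 49.3% for LTP3. It was under 10% for 16 members and over 30% for 5. Replicate 3 held the highest nkd1-Ds value for 27 members, replicate 1 for 19, and replicates 2 and 4 for 7 each. Of the 20057 tested genes with a nkd1-Ds mean of at least 2 RPKM, replicate 3 was highest for 20.9% and replicate 1 for 36.3%, beside 45% and 31.7% of the members. These are counts over genes that share libraries and carry no test.

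The members sit at 1 edge of a large set. Of all genes, 4580 met the limits for WT and nkd2-Ds, and 1.33% of them also met the limit for nkd1-Ds. Of these 4580 genes, 3749 (81.9%) had a mean under 0.5 RPKM in nkd1-Ds too, and the median mean was 0.214 RPKM. The members closest inside the lower limit were GRMZM2G376825, with a lowest nkd1-Ds value of 2.0 RPKM, OCL6 and AUX32 with 2.01 RPKM each, GRMZM2G090744 with 2.12 RPKM and GRMZM2G099802 with 2.17 RPKM. The genes closest outside were AC215260.3_FG001 at 1.99 RPKM, GRMZM5G879536 and GRMZM2G143457 at 1.97 RPKM, AC233893.1_FG003 at 1.96 RPKM and GRMZM2G009335 at 1.94 RPKM. Levels ran on across the limit without a gap.

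The limits were also applied with the genotypes exchanged. For the direct opposite, genes on in WT and nkd2-Ds and at most 0.5 RPKM in nkd1-Ds, they found 7 genes, beside 61 for the rule itself. For genes off in nkd2-Ds alone they found 5. They found 74 genes on in WT and off in both mutants (at most 0.5 RPKM in nkd1-Ds and 1 RPKM in nkd2-Ds), and 59 with the limits of the mutants swapped. They found 22 genes on in nkd2-Ds alone under either order of the limits. A further 52 genes were at most 0.5 RPKM in WT and at least 2 RPKM in every library of both mutants.

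For the differences from WT, limma was fitted on log2(RPKM + 1) over 26706 genes. Each of the 60 members entered that fit through its nkd1-Ds level, so it could not have been left out. The members' log2 difference between nkd1-Ds and WT had a median of 2.09 and a range of 1.29 to 5.50, against a median of -0.02 over all genes tested. The median rests on the pseudocount, since the WT values are near 0: it was 4.84 with a pseudocount of 0.1, 2.78 with 0.5, and 6.24 by limma voom on reads recovered from the deposited values. A call is a Benjamini-Hochberg adjusted p under 0.05. All 60 were called higher, where 26.5% of all genes tested were higher and 55.7% were called in either direction; the rule used this contrast and nothing is read from the count.

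In nkd2-Ds the members stayed near WT, within the limit the rule set. The median log2 difference from WT was 0.04, and the nkd2-Ds mean was above the WT mean for 35 of the 60. limma called 5 members higher and 0 lower, where 12% of all genes tested were called higher and 13.6% lower, together 25.5%. At an unadjusted p under 0.05 the counts were 8 and 0, and limma voom called 7 higher and 0 lower. Because the rule capped these values, the count is a description. The number called higher was 9 with a pseudocount of 0.1 and 3 with quantile normalization, which also called 1 lower, and it was 3 to 5 with any 1 library left out.

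Among the 5, GRMZM2G177812 stood at 0.681, 0.842, 0.780 and 0.861 RPKM in nkd2-Ds, at 0.349, 0.331, 0.221 and 0.132 RPKM in WT and at 4.00, 3.70, 4.29 and 3.31 RPKM in nkd1-Ds. GRMZM2G478414 stood at 0.494, 0.666, 0.726 and 0.539 RPKM in nkd2-Ds, at 0.293, 0.0744, 0.102 and 0.0783 RPKM in WT and at 5.57, 6.40, 4.89 and 3.82 RPKM in nkd1-Ds. GRMZM2G135022 stood at 0.821, 0.831, 0.537 and 0.997 RPKM in nkd2-Ds, at 0.487, 0.495, 0.113 and 0.365 RPKM in WT and at 5.48, 4.12, 3.95 and 3.23 RPKM in nkd1-Ds. In these genes nkd2-Ds lay between WT and nkd1-Ds, far nearer WT. The remaining genes of the 5 were GRMZM2G141205 and GRMZM2G376825. With GRMZM2G322819 and AUX32, a total of 7 members had all 4 nkd2-Ds values above all 4 WT values, a separation found in 11.9% of all genes tested.

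The position of the members was taken from gene order in the RefSeq gene table of the B73 assembly Zm-B73-REFERENCE-NAM-5.0, used for names and neighbours only. That table holds 38 of the 60 members (63.3%) and 44.4% of all genes in the files, and it places 37 members. Of the placed members, 3 pairs of different genes lay close to each other. BURP4 and GRMZM2G478414 were 6 placed genes apart, as were GRMZM2G179432 and GRMZM2G113002, and GRMZM2G151992 and GRMZM2G479260 were 9 apart. The placed member nearest to nkd1 was the alternative oxidase gene GRMZM2G125669, 69 placed genes away, and the nearest to nkd2 was GRMZM2G099802, 91 placed genes away.

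Neighbouring genes, chosen by position and not by level, were compared to see whether the change reached past the members. Up to 5 placed genes on either side of each member gave 353 genes, of which 290 were tested. In nkd1-Ds 84 of them (29.0%) were called higher and 91 (31.4%) lower, beside 26.5% and 29.2% of all genes tested. A rise of 2-fold or more was called for 13 (4.48%) and such a fall for 9 (3.10%), against 4.44% and 4.10% of all genes tested. The median log2 difference of the neighbours was at 0 after rounding, as against -0.02 over all genes. Of the 57 tested genes placed directly next to a member, 16 rose and 14 fell. The neighbours' shares were thus near those of all genes. Through their nkd1-Ds level alone 12 neighbours entered the fit, and all 12 were called higher. Among the 273 neighbours with a mean of at least 1 RPKM over all libraries, 26.7% were called higher and 31.9% lower. That mean includes the nkd1-Ds values, so it does not remove every neighbour that passes only because nkd1-Ds is high. Scaling by total reads moved the split to 204 higher of 226 called, and it moved all genes alike, from 47.6% to 89.2% of calls higher, with a median log2 difference over all genes of 0.43.

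Among the neighbours, the 5 with the largest rise and the 5 with the largest fall are described. The largest rise was near GRMZM2G145440, 1 of the 7 members without a read elsewhere. GRMZM2G097135, the third placed gene before it, stood at 1.96, 2.47, 1.15 and 1.84 RPKM in WT, at 62.3, 62.7, 54.5 and 66.4 RPKM in nkd1-Ds, and at 5.42, 4.36, 18.5 and 14.2 RPKM in nkd2-Ds. It rose by 4.47 ± 0.332 in nkd1-Ds (log2 ± SE, limma adjusted p = 1.86e-07). GRMZM2G015976, the placed gene directly before the same member, fell from 9.24, 9.62, 7.45 and 6.92 RPKM in WT to 1.37, 1.53, 0.871 and 1.19 RPKM in nkd1-Ds (log2 -2.05 ± 0.157, limma adjusted p = 2.4e-07). Genes on the same side of this member therefore changed in opposite directions.

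GRMZM2G428391, near GRMZM2G113002, rose from 5.44, 6.28, 5.65 and 6.17 RPKM in WT to 84.6, 91.6, 67.5 and 74.1 RPKM in nkd1-Ds (log2 3.54 ± 0.196, limma adjusted p = 1.25e-08). It was also called higher in nkd2-Ds, at 17.4, 17.6, 37.6 and 27.8 RPKM (limma adjusted p = 1.34e-05). GRMZM2G180870, near OCL6, had a WT mean of 0.259 RPKM and an nkd1-Ds mean of 6.55 ± 1.11 RPKM (SD, n = 4). GRMZM2G180870 came close to the rule itself, since its highest nkd2-Ds value was 1.06 RPKM against a limit of 1 RPKM. GRMZM2G098058, near GRMZM5G852886, had means of 0.381 RPKM in WT and 4.06 RPKM in nkd1-Ds. Both GRMZM2G180870 and GRMZM2G098058 entered the fit through nkd1-Ds alone, where they were high, so their calls are no test of a rise. GRMZM2G088375, near GRMZM2G047835, rose to a like level in both mutants, with means of 3.39 RPKM in WT, 16.4 RPKM in nkd1-Ds and 19.2 RPKM in nkd2-Ds (limma adjusted p = 1.81e-10 and 7.33e-11).

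Of the 91 neighbours that fell in nkd1-Ds, 31 were also called lower in nkd2-Ds. The comparisons share the WT libraries, and the same overlap was not counted over all genes, so nothing is read from it. Of the 5 neighbours with the largest fall, 3 were among these 31. GRMZM2G152496, near GRMZM2G033359, stood at 20, 16.2, 18.7 and 18.9 RPKM in WT, at 0.0368, 0.328, 0.0156 and 0.0679 RPKM in nkd1-Ds and at 0.337, 0.114, 0.419 and 0.531 RPKM in nkd2-Ds (limma adjusted p = 1.42e-11 and 3.4e-11). GRMZM2G007695, near AUX32, had means of 11.9, 0.484 and 0.579 RPKM in WT, nkd1-Ds and nkd2-Ds (limma adjusted p = 2.69e-12 and 5.16e-12). GRMZM2G109668, near GRMZM2G099802, had means of 13.0, 2.76 and 2.88 RPKM in the same order (limma adjusted p = 7.75e-09 and 1.61e-08). The last of the 5 was GRMZM2G309832, listed as z1B_7, a zein storage protein gene near AGA1. Its mean went from 93.3 RPKM in WT to 37.7 RPKM in nkd1-Ds (log2 -1.29 ± 0.206, limma adjusted p = 0.000159). Zein genes are a family of near-identical copies, so its level is uncertain.

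**Figure D4:**
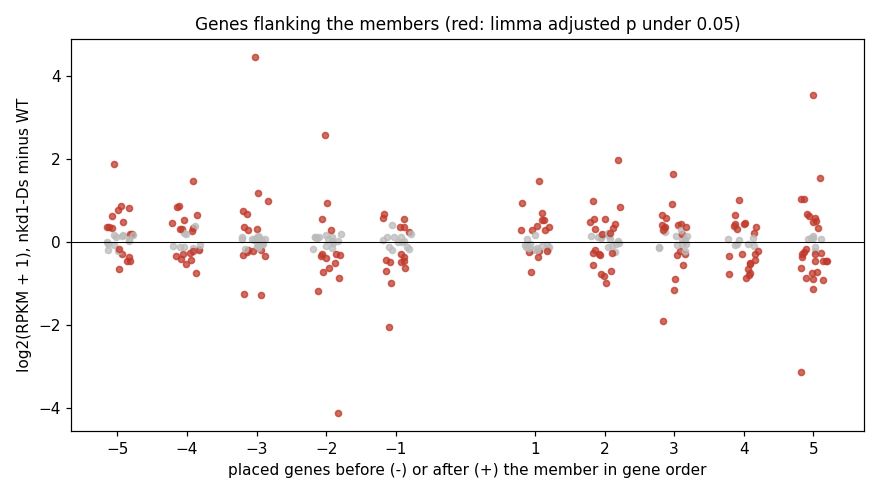
Difference in log2(RPKM + 1) between nkd1-Ds and WT for the 290 tested neighbours, by their place in gene order before (negative) or after (positive) the member; each point is a gene, red where the limma adjusted p was under 0.05, with sideways scatter for legibility. Points above and below 0 are found at every distance, with 84 higher and 91 lower among the called genes.

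Genes that share an alias stem with a member were compared next, to see what other genes of the same named series did. The 9 stems were AUX, GST, KIN, BURP, AGA, NIP, HD-ZIP IV, LTP and AOX, and the last 2 matched no other gene. They gave 51 genes, of which 39 were tested. In nkd1-Ds 21 (53.8%) were called higher and 4 (10.3%) lower, and 11 (28.2%) at least 2-fold higher, beside 26.5%, 29.2% and 4.44% of all genes tested. The median log2 difference was 0.38. Of the 21, 4 entered the fit through nkd1-Ds alone, so their calls are no test of a rise: AUX14 (GRMZM2G077356), gst42 (GRMZM2G025190), gst41 and AGA2. Over all genes tested, 980 entered in this way and 831 of them were called higher. Others of the 21, such as gst19 and BURP10, entered through the mutants alone and have the same limit. Among the 36 with a mean of at least 1 RPKM over all libraries, 18 were called higher, 4 lower and 9 at least 2-fold higher. That mean includes the nkd1-Ds values, so it does not remove genes that pass only because nkd1-Ds is high, such as gst41. These counts describe the list and support nothing about it. The stems were taken from the members' own aliases after their values were known, and the list was not trimmed. Some stems mix unlike genes.

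The AGA stem held 4 gene models, 2 of them for a single gene of the table, AGA3a. All 4 were called higher on the deposited scale, with total reads and with quantile normalization, AGA2 after entering the fit through nkd1-Ds alone. AGA3b (GRMZM2G037265) stood at 3.78, 3.52, 2.52 and 3.73 RPKM in WT and at 8.38, 7.81, 8.88 and 9.44 RPKM in nkd1-Ds (limma adjusted p = 9.58e-07). AGA2 (GRMZM2G127147) stood at 0.784, 0.921, 0.536 and 0.620 RPKM in WT and at 1.81, 1.75, 2.42 and 1.80 RPKM in nkd1-Ds. Both stood above AGA1 in WT, where the rule held AGA1 at or under 0.5 RPKM.

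Of 10 tested AUX genes 6 were called higher, AUX14 included, and 2 lower in nkd1-Ds. AUX1 (GRMZM2G000158) stood at 2.21, 2.70, 7.89 and 2.50 RPKM in WT, at 34.2, 27.7, 32.6 and 27.9 RPKM in nkd1-Ds and at 3.09, 3.31, 3.91 and 2.67 RPKM in nkd2-Ds (log2 2.84 ± 0.251 in nkd1-Ds, limma adjusted p = 8.41e-07). AUX22, also named BIF1 (GRMZM2G130953), is an Aux/IAA gene known for its role in the maize inflorescence. It rose from 1.53, 1.5, 0.730 and 0.850 RPKM in WT to 9.07, 9.04, 8.24 and 9.34 RPKM in nkd1-Ds (log2 2.23 ± 0.119, limma adjusted p = 9.51e-09). BIF1 was also called higher in nkd2-Ds, with a mean of 2.19 RPKM (limma adjusted p = 0.00293). AUX17 (GRMZM2G079957) rose from a WT mean of 1.54 RPKM to 6.61 ± 0.481 RPKM (SD, n = 4; limma adjusted p = 2.5e-08) and stood at 1.5 RPKM in nkd2-Ds.

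The AUX genes that fell were AUX27 and abp1. AUX27 (GRMZM2G142768) had a WT mean of 1.80 RPKM and an nkd1-Ds mean of 0.746 RPKM (limma adjusted p = 0.000203). abp1 (GRMZM2G116204), listed with the alias Aux311, is an auxin-binding protein gene and not an Aux/IAA gene. It fell from 31.7, 30.2, 31.8 and 31.4 RPKM in WT to 10.4, 10.4, 10.1 and 11.3 RPKM in nkd1-Ds (limma adjusted p = 1.27e-08). The AUX series therefore did not move as a block.

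Of 12 tested glutathione S-transferase genes 6 were called higher, gst41 and gst42 included, and 1 lower. gst19 (GRMZM2G335618) stood at 0.844, 0.743, 0.406 and 0.532 RPKM in WT and at 9.40, 9.24, 10.7 and 10.1 RPKM in nkd1-Ds (log2 2.74 ± 0.107). Its level was 1.90, 2.19, 1.39 and 1.88 RPKM in nkd2-Ds. With a WT mean of 0.631 RPKM, gst19 entered the fit through the mutants alone, so its calls are no test of a rise. gst41 (GRMZM2G097989) stood at 0.635, 0.535, 0.265 and 0.416 RPKM in WT and at 10.3, 7.52, 7.43 and 8.39 RPKM in nkd1-Ds, with no test for the reason given. Both had a WT level above that of gst23, which the rule held at or under 0.5 RPKM there. gst19 was also called higher in nkd2-Ds, with the same limit as its nkd1-Ds call. gst31 (GRMZM2G475059) went the other way, from 25.6, 26.4, 24.2 and 22.7 RPKM in WT to 7.49, 8.82, 6.40 and 7.19 RPKM in nkd1-Ds (log2 -1.61 ± 0.101, limma adjusted p = 4.13e-08). With libraries scaled by total reads, 10 of the 12 were called higher and 1 lower.

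Of 9 tested KIN genes 3 rose and 1 fell. The stem mixes kinesin-related genes, listed with krp aliases, with others of the same letters. The gene that fell, GRMZM2G129569, had a WT mean of 7.12 RPKM and an nkd1-Ds mean of 5.83 RPKM (log2 -0.25 ± 0.0662, limma adjusted p = 0.00577), and its difference turned to 0.22 (limma adjusted p = 0.0921) when libraries were scaled by total reads, which called 7 of the 9 higher and 0 lower. Of 3 tested BURP genes 1 was called higher, BURP10 (GRMZM2G446170), with means of 0.388 RPKM in WT, 1.11 RPKM in nkd1-Ds and 1.24 RPKM in nkd2-Ds. BURP10 entered the fit through the mutants alone, so its call is no test of a rise. The HD-ZIP IV gene OCL8 (GRMZM2G122897) rose from 1.00 to 1.57 RPKM in the mean (limma adjusted p = 0.0153). The only other NIP gene was too low to be tested.

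**Figure D5:**
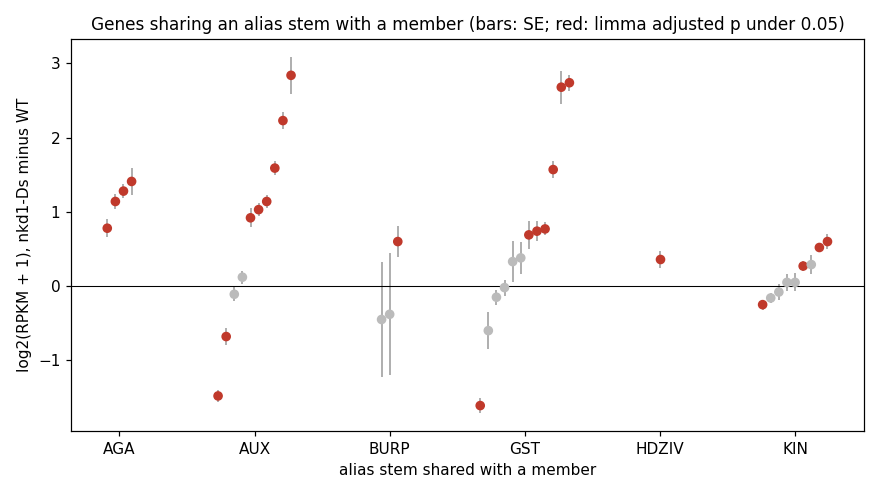
Difference in log2(RPKM + 1) between nkd1-Ds and WT for the 39 tested genes that share an alias stem with a member, by stem; each point is a gene with its SE, red where the limma adjusted p was under 0.05. The AGA points all lie above 0, the AUX and GST points lie on both sides of 0, and the KIN points stay between -0.25 and 0.60.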

How the data were processed

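Libraries were made from polyadenylated RNA of whole endosperm with a stranded Illumina kit, per the labels' protocols. The submitters' processing notes name FastQC, TopHat2 2.1.1, featureCounts and Cufflinks 2.2.1, with no role or order. The sources used here name neither build nor annotation, nor strand use in counting. Overlapping or antisense genes may therefore share reads. The deposited tables hold 1 RPKM value per gene and library, judged as RPKM from the values, because each header gives a sample name alone.

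For each gene the deposited values were whole multiples of a step, which gave whole reads, gene lengths and library sizes for 34307 of 34307 genes with a value (tolerance 0.02 reads). The other 41 genes were 0 throughout. Reads served for floors, for scaling by total reads and for limma voom.

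The limma-trend model (limma 3.58.1, R 4.3.3) was fitted on log2(RPKM + 1). Genes needed a group mean of 1 RPKM or more in any group. All 12 libraries entered with genotype as the factor. Tests were two-sided, with Benjamini-Hochberg adjustment over all genes tested and a call at adjusted p under 0.05. On this scale the fold change of a low gene comes out too small. The steps were tested on simulated data.

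Members and lists were chosen with earlier results of these data known. Named were the 10 highest members, other members with a descriptive alias, genes nearest the lower limit, and the 5 called neighbours and 5 called stem genes with the largest rise and fall, or fewer. Other genes named, such as members with no read elsewhere, those called in nkd2-Ds, near-identical models, AGA2, AGA3b, BURP10 and OCL8, were picked after their values were seen. Alias stems replaced product names, which the reference table does not hold. Promoter motifs were not run and no sequence is shown, because no sequence was used here.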

Additional observations from a re-analysis of the deposited data

Results flagged for a closer look

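In 4 members a single nkd1-Ds library stood apart from the other 3 by Dixon's test at the 95% level. GRMZM2G048131, an AUX9 model, was 8.03 RPKM in replicate 1 and 5.99 to 6.14 RPKM in the others. AC213432.2_FG004 was 9.09 RPKM in replicate 1 and 4.95 to 5.20 RPKM in the others. GRMZM2G099802 was 3.94 RPKM in replicate 1 and 2.17 to 2.42 RPKM in the others. GRMZM2G047065 was 4.62 RPKM in replicate 4 and 6.43 to 6.77 RPKM in the others. The test was run on 86 groups of libraries with a mean of at least 10 reads, a minimum set after the values were seen, and chance flags about 1 in 20 groups. Of the 4 flags 3 were in nkd1-Ds replicate 1.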

How the results depend on the processing

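The number of genes meeting the rule moved with its limits: 36 with upper limits of 0.25 and 0.5 RPKM (WT, nkd2-Ds), 144 with 1 and 2 RPKM, 185 with a lower limit of 1 RPKM in nkd1-Ds, 20 with 4 RPKM, 133 on group means, and 95 on RPKM rescaled by total reads, of which 59 were members. With 1 library left out it was 60 to 68. The members' median log2 difference, 2.09, became 4.84 and 2.78 with pseudocounts of 0.1 and 0.5, 3.26 with a filter at 5 RPKM, 2.38 with total reads, 2.03 with quantile normalization and 6.24 by voom, and was 2.06 to 2.14 with 1 library left out. For nkd1-Ds against WT 14877 genes were called, 9058 with a filter at 5 RPKM, and 13646 to 15073 with 1 library left out. For nkd2-Ds against WT 6823 were called, 4543 with that filter, 4527 with total reads, and 5340 to 6979 with 1 library left out. In both cases the filter tests fewer genes. Total reads moved the share of calls that were higher from 47.6% to 89.2% in nkd1-Ds and from 46.9% to 72.4% in nkd2-Ds, and turned GRMZM2G129569 to 0.22. This scaling puts assigned reads in place of the deposited library size, which multiplies all RPKM values of a library by the same factor. Why the assigned reads and the deposited size differ was not tested. Calls among neighbours were 158 to 176 and among stem genes 24 to 27 with 1 library left out. With the replicate block the calls were 14282, 6039, 166 and 25. Deviations from group means correlated at -0.276 to 0.125 between same-numbered libraries, with 1 of 12 pairs over 0.1. No pairing by number was seen, but with 4 libraries per group this check cannot exclude it. The comparison of shared product names and the promoter motifs were not run. Low reads in WT limit the fold of members at or near 0 there. With a filter on the mean over all libraries, which includes nkd1-Ds and was chosen after seeing the data, calls were 160 among neighbours and 22 among stem genes.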
